A study of Mus musculus with 9 samples.

Results

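The GDNF family is a small group of secreted growth factors with dedicated receptors. The genes described here are the ligands Gdnf, Nrtn (neurturin) and Artn (artemin), the receptors Gfra1, Gfra2, Gfra3 and Gfra4, the kinase Ret and the adhesion molecule Ncam1. They were chosen by gene symbol from the family's membership and by no cut on their values, though earlier results of these data were known. They make up 9 of the 21049 genes in the table of sorted mouse lung smooth muscle. Of the 9, 8 passed the filter on low values, which asked for 3 or more libraries at 10 or above. In all 15647 genes passed it, and Gfra3 did not.

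As background, each ligand binds a GPI-anchored co-receptor of the GFRα family, and the complex then activates the receptor tyrosine kinase RET. GDNF pairs mainly with GFRα1, neurturin with GFRα2, artemin with GFRα3 and persephin with GFRα4. NCAM can serve as an alternative signalling receptor for GDNF together with GFRα1. In peripheral organs these ligands act on autonomic and sensory neurons, which they support and attract, and neurturin with GFRα2 is known for its part in parasympathetic innervation.

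RNA was sequenced from 3 groups of 3 libraries. SmMCll were all smooth muscle cells sorted from lungs, veins included, of mice with an Acta2-GFP transgene (tg-Acta2-GFP). PASMC were labelled as pulmonary arterial cells from ASMC-effector mice of genotype Cspg4/Acta2-CreER/R26-GFP, and BSMC as bronchial cells from NVSMC-effector mice of genotype Chrm2/Acta2-CreER/R26-GFP. All 9 libraries, the transgene line included, carry the label tamoxifen, injected on 3 days at 0.75 mg for every 10 g of mouse (20 mg/mL in corn oil). Acta2 drives a transgene in all 3 genotypes as named. The sources used here give neither an age nor the number of animals behind the replicates, so the spread that enters each p-value may be technical. Cell population, mouse line and sort cannot be told apart in any comparison.

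The implied depth was 6.39 to 10.02 M reads per library. The smooth muscle myosin gene Myh11 was at 10055 to 12375 in SmMCll, 11203 to 12498 in PASMC and 9171 to 11404 in BSMC. Marker genes ran both with and against the labels PASMC and BSMC. Hhip, a Hedgehog antagonist of airway smooth muscle, was at 7414 to 7798 in the libraries labelled PASMC and 2913 to 3491 in those labelled BSMC, and Chrm2, the muscarinic receptor named in the BSMC line, was at 199 to 398 in libraries labelled PASMC and 115 to 223 in those labelled BSMC. Of 8 airway smooth muscle genes, 5 were higher in libraries labelled PASMC and 0 lower, beside 13.2% and 8.88% of all genes tested. Cspg4, the pericyte and mural cell gene named in the PASMC line, averaged 2003 ± 370 in PASMC and 1514 ± 244 in BSMC, a difference that did not pass (0.40, adjusted p = 0.268). Of 10 vascular smooth muscle genes, 3 (Gja5, Itga7 and Jag1) were higher in PASMC and 1 (Gja4) was lower, beside the same shares of all genes. The libraries labelled BSMC also held leukocyte RNA, with Coro1a at 927 to 1457 in BSMC against 5 to 8 in PASMC. Of 12 leukocyte genes, 0 were higher and 10 lower in PASMC than in BSMC, beside the same shares of all genes. Lyz2 had no call there, at 1670 to 1843 in PASMC and 1939 to 2798 in BSMC, nor did Gata3. SmMCll held RNA of other cell types too. Of 8 endothelial genes, 6 were higher and 0 lower in SmMCll than in PASMC, beside 9.39% and 6.83% of all genes tested. Between SmMCll and BSMC 2 were higher and 0 lower, beside 23.7% and 18.2%. Of 8 mesothelial genes, 7 were higher and 0 lower in SmMCll than in PASMC. Fibroblast and mesothelial genes are described with Gfra2. The names SmMCll, PASMC and BSMC below therefore mean the libraries so labelled.

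Between the populations the family moved in opposing directions. In SmMCll the ligand Nrtn, the receptor Gfra4 and Ncam1 were lower than in both other groups, and the receptor Gfra2 was higher than in both. Artn was also higher in SmMCll than in PASMC, by a margin that depended on single libraries. Between PASMC and BSMC, Gfra2 was higher and Gfra4 lower in PASMC, so these receptors ran in opposite order across the groups. Gdnf, Gfra1 and Ret were low in every library, and Gfra3 was nearly absent from the counts.

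Of the 8 members tested between SmMCll and PASMC, 5 passed an adjusted p of 0.05, where 16.2% of all genes tested passed. These were 2 higher (9.39% of all genes) and 3 lower (6.83%). Between SmMCll and BSMC 4 of 8 passed, near the background of 41.9%, with 1 higher (23.7% of all genes) and 3 lower (18.2%). Between PASMC and BSMC 2 of 8 passed, near the background of 22.1%, with 1 higher (13.2%) and 1 lower (8.88%). Groups did not overlap for 5 of the 8 between SmMCll and PASMC (40.5% of all genes; 22.6% higher and 18% lower), for 6 between SmMCll and BSMC (50.5%; 26.6% higher and 23.9% lower) and for 4 between PASMC and BSMC (35.2%; 17.6% in each direction). The median log2 fold change of the 8 was -0.35, 0.92 and 0.77 in these comparisons, against 0.03, 0.05 and 0.05 over all genes tested. The medians against BSMC include the low members Gdnf, Gfra1 and Ret, which passed no test. Between SmMCll and BSMC these were at 1.12, 2.22 and 1.85, while 3 of the 4 members called there were lower. These comparisons share libraries, so they are not separate evidence. All adjusted p-values are from limma with Benjamini-Hochberg adjustment over all genes tested, and fold changes refer to log2(value + 1), each with its standard error (SE).

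**Figure D1:**
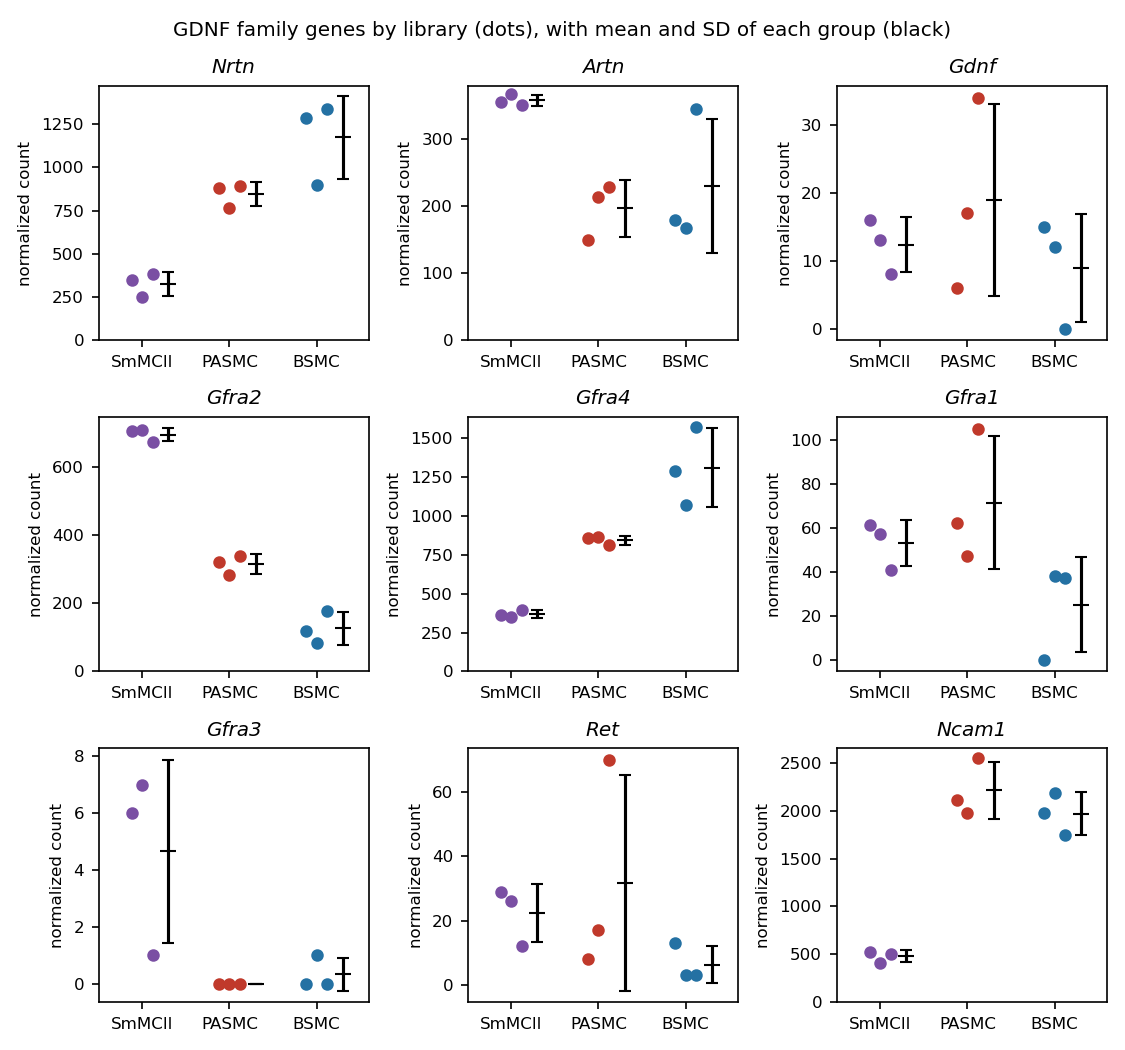
Normalized count of each of the 9 genes (vertical axes, each with its own scale) in the 3 libraries of SmMCll, PASMC and BSMC; coloured dots are libraries and black marks are the group mean ± SD. Nrtn and Gfra4 step up and Gfra2 steps down across the groups without overlap, while Ncam1 is low in SmMCll, at 410 to 524, and overlaps between PASMC and BSMC.

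Nrtn had the highest level of the 3 ligands per kb of exon in every group, while by normalized count Artn was above it in SmMCll replicates 1 and 2. Neurturin is a secreted survival factor for neurons, and its gene (ENSMUSG00000039481) lies on mm39 chromosome 17, 57058325 to 57064530, minus strand. Its normalized counts were 348, 251 and 386 in SmMCll, 882, 765 and 891 in PASMC, and 1285, 900 and 1337 in BSMC. All 3 SmMCll libraries lay below every other library, and the lowest BSMC library lay just above the highest PASMC library. The level was lower in SmMCll than in PASMC by 2.61-fold (log2 fold change -1.38, SE 0.20, adjusted p = 0.00062). It was lower in SmMCll than in BSMC by 3.57-fold (-1.84, SE 0.20, adjusted p = 3.94e-05). Between PASMC and BSMC the difference did not pass (-0.45, adjusted p = 0.113, 95% interval -0.89 to -0.02), and it passed without BSMC replicate 2 (-0.63, adjusted p = 0.0165; 0.0165 to 0.341 over all alternatives). In a bulk sample, fewer cells that express a gene and less RNA per cell cannot be told apart.

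Reads were dense on this short gene. With 1023 exonic bases, Nrtn held 0.272 to 0.37 implied reads per base in SmMCll, 0.867 to 0.907 in PASMC and 0.984 to 1.12 in BSMC. Of 15367 genes tested with a known exon length, 235 held a mean of at least 1 read per base. Across genes the variance within groups relative to the mean was 11.7 at the median for genes with 0.8 to 1 read per base, against 24.1 for those with 0.2 to 0.4. This median was 8.08 for genes with 1 to 1.5 reads per base and 1.19 for the 28 genes from 1.5 up. For Nrtn itself the variance relative to the mean was 8.74 in SmMCll, 0.585 in PASMC and 5.14 in BSMC. Myh11 was dense as well, with at least 8207 implied reads in each library on 7599 exonic bases. Whether the counts of dense genes were limited was not tested.

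Artn ran the other way. Artemin is a ligand of sensory and sympathetic neurons, known from vessel-guided axon growth, and its gene (ENSMUSG00000028539) lies on chromosome 4, 117783359 to 117786960, minus strand. Its counts were 355, 367 and 351 in SmMCll, 149, 213 and 229 in PASMC, and 179, 167 and 345 in BSMC. The SmMCll libraries lay close together and above all others, while BSMC replicate 3 stood almost level with them. The level was 1.84-fold higher in SmMCll than in PASMC (0.88, SE 0.27, adjusted p = 0.0481), and this call was lost under 12 of 20 alternatives, with adjusted p-values from 0.00132 to 0.176. It was lost without any single library of PASMC (replicate 1, 0.176; replicate 2, 0.0929; replicate 3, 0.0624) or of SmMCll (replicate 1, 0.126; replicate 2, 0.137; replicate 3, 0.128). Between SmMCll and BSMC it did not pass (0.71, SE 0.27, adjusted p = 0.0545), and it passed without BSMC replicate 3 (1.04, adjusted p = 0.00332; 0.00332 to 0.157 over all alternatives). Between PASMC and BSMC the difference was -0.17 (adjusted p = 0.672, 95% interval -0.77 to 0.43).

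Gdnf, the founding ligand of the family (ENSMUSG00000022144, chromosome 15, 7840327 to 7867056, plus strand), was scarce. Its counts were 16, 13 and 8 in SmMCll, 6, 17 and 34 in PASMC, and 15, 12 and 0 in BSMC. All groups overlapped, and no comparison passed (adjusted p = 0.882 between SmMCll and PASMC, 0.369 between SmMCll and BSMC and 0.28 between PASMC and BSMC). The library at 0 allows a value of up to 3.84, the worth of 3 reads there, for counting error only. The intervals of the log2 fold change reached from -2.49 to 1.79 between SmMCll and PASMC, so changes within that range are not told from none by these libraries.

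The proportion of ligands differed between the groups. Per kb of exon, Nrtn averaged 321 ± 68.1 in SmMCll, 827 ± 68.7 in PASMC and 1148 ± 233 in BSMC, and Artn averaged 149 ± 3.5 in SmMCll, 81.9 ± 17.6 in PASMC and 95.8 ± 41.4 in BSMC (SD, n = 3 each). Gdnf was at 3.36 ± 1.10 in SmMCll, 5.17 ± 3.84 in PASMC and 2.45 ± 2.16 in BSMC on the same scale. Per kb of exon, Nrtn thus lay above Artn in every library, by 1.61 to 2.59 times in SmMCll, 8.44 to 13.9 times in PASMC and 9.11 to 16.9 times in BSMC. These ratios rest on exon lengths of 1023 and 2405 bases, the union of all annotated exons. The transcripts expressed may be shorter, so numbers of transcripts were not measured. By normalized count Nrtn was at 251 to 386 and Artn at 351 to 367 in SmMCll. The ratios of SmMCll did not overlap those of the other groups, which overlapped each other, and these ratios carry no test of their own. Persephin (Pspn), the fourth ligand and not a member of the set, was at 2 to 3 in SmMCll, 1 to 10 in PASMC and 4 to 11 in BSMC and did not pass the filter.

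The upstream windows of the ligand and receptor genes that moved are shown because these members moved together or apart across the groups. Windows of 250 bases before the gene start come from RefSeq on build GRCm38.p6, are written 5′ to 3′ on the strand of the gene, and were given for Nrtn, Artn, Gfra4, Gdnf and Gfra1, of which the first 3 are printed. Capitals mark a match to the GC box GGGCGG on either strand.
Nrtn, chr17:56757549-56757798, minus strand: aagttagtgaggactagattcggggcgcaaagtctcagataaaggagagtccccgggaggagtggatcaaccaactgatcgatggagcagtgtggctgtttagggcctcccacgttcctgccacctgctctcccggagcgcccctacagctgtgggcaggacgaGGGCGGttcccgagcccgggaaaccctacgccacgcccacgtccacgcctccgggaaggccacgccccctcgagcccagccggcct
Artn, chr4:117929764-117930013, minus strand: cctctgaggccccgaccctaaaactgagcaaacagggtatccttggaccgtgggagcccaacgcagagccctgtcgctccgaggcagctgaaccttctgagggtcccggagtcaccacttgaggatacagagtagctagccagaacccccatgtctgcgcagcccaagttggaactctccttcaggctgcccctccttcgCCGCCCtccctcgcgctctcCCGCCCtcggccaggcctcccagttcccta
Gfra4, chr2:131043089-131043338, minus strand: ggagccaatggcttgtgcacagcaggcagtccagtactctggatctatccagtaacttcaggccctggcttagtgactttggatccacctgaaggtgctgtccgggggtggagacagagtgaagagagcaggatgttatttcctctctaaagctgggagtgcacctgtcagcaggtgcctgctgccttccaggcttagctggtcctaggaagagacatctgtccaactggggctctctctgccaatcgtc
The GC box matched once in the Nrtn window and at 2 places in that of Artn, and the Gfra4 window held 0 matches; of 32851 windows of this length, 32.7% hold it. TATAAA matched in 0 of these 3 windows and in 12.4% of all, and the CArG box, the binding motif of serum response factor, matched in 0 of the 3 and in 1.47% of all. The window of Gdnf, not printed, held TATAAA, starting 31 bases before the gene start. The E-box CANNTG matched 3 times for Nrtn, 2 times for Artn and 5 times for Gfra4, and in 66.2% of all windows. No motif overlapped another in the capitals shown, and a match is a description of letters only.

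Gfra2, the preferred co-receptor of neurturin, had the widest span among the receptors that passed a test. The gene (ENSMUSG00000022103) lies on chromosome 14, 71127560 to 71217278, plus strand. Its counts were 704, 708 and 672 in SmMCll, 320, 282 and 340 in PASMC, and 118, 82 and 178 in BSMC. The groups formed 3 separate steps with no overlap, in the reverse order of Nrtn. The level was 2.21-fold higher in SmMCll than in PASMC (1.15, SE 0.24, adjusted p = 0.00685). It was 5.75-fold higher in SmMCll than in BSMC (2.52, SE 0.24, adjusted p = 1.80e-05). It was also higher in PASMC than in BSMC (1.38, SE 0.24, adjusted p = 0.00219). All of these calls held under every alternative tried.

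Fibroblast RNA moved with Gfra2. The 13 fibroblast genes summed to 7213 to 7999 CPM (normalized counts scaled to equal library totals) in SmMCll, 5525 to 6160 in PASMC and 4615 to 5420 in BSMC, and none of them was at 0 in any library. Among them Pdgfra, a growth factor receptor of fibroblasts, was at 6749 to 8301 in SmMCll, 1707 to 2061 in PASMC and 207 to 520 in BSMC. Of the 13, 5 were higher and 1 lower between SmMCll and PASMC, 7 and 0 between SmMCll and BSMC, and 8 and 0 between PASMC and BSMC. Over all genes tested the shares higher and lower were 9.39% and 6.83%, 23.7% and 18.2%, and 13.2% and 8.88% in this order. The 8 mesothelial genes summed to 989 to 1097 CPM in SmMCll, 432 to 488 in PASMC and 501 to 727 in BSMC, a different order from that of Gfra2. Much of these sums was Cpe, which averaged 3313 in SmMCll, 3669 in PASMC and 4310 in BSMC. Msln was at 1568 to 1821 in SmMCll, 2 to 18 in PASMC and 64 to 200 in BSMC. Of the 8, 7 were higher and 0 lower between SmMCll and PASMC, beside the same shares of all genes. The counts were 6 and 1 between SmMCll and BSMC, and 0 and 5 between PASMC and BSMC. The list medians were 4.68, 2.87 and -1.77 in this order. The part of these cells in the level of Gfra2 was not tested.

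Gfra4, the co-receptor of persephin (ENSMUSG00000027316, chromosome 2, 130881552 to 130885008, minus strand), was the mirror image. Its counts were 364, 349 and 395 in SmMCll, 855, 865 and 810 in PASMC, and 1291, 1068 and 1575 in BSMC. The groups again formed 3 steps with no overlap. The level was 2.28-fold lower in SmMCll than in PASMC (-1.19, SE 0.15, adjusted p = 0.000333). It was 3.50-fold lower in SmMCll than in BSMC (-1.81, SE 0.15, adjusted p = 7.42e-06). It was 1.54-fold lower in PASMC than in BSMC (-0.62, SE 0.15, adjusted p = 0.0156), a call lost without PASMC replicate 1 (-0.63, adjusted p = 0.055) and on unscaled reads (-0.39, adjusted p = 0.0756), within 0.00169 to 0.0756 over all alternatives. Its exons share 80 bases with the microRNA gene Mir6973b on the same strand.

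The summed level of the smooth muscle list had the same order of group means as Nrtn and Gfra4. Its 8 genes summed to 2717 to 3088 CPM in SmMCll, 3297 to 3710 in PASMC and 3581 to 4284 in BSMC. The sums of PASMC and BSMC thus overlapped, and their order depends on the scaling. In implied reads, before scaling, Acta2 was at 2935 to 3335 in SmMCll, 3545 to 3563 in PASMC and 3538 to 3669 in BSMC, on 2196 exonic bases. Cnn1 was at 2704 to 2824 in SmMCll, 2985 to 3015 in PASMC and 2969 to 2985 in BSMC, on 2736 exonic bases. Both genes were dense, as Nrtn was, and whether their counts were limited was not tested. Of the 8, 0 were higher and 3 lower between SmMCll and PASMC, 0 higher and 5 lower between SmMCll and BSMC, and 1 higher and 0 lower between PASMC and BSMC. The shares of all genes tested, higher and lower, were 9.39% and 6.83%, 23.7% and 18.2%, and 13.2% and 8.88% in this order. Lmod1, an actin nucleator of smooth muscle, averaged 1488 ± 244 in SmMCll, 3071 ± 219 in PASMC and 3557 ± 120 in BSMC. Myocd, the smooth muscle coactivator, had another order, at 504 ± 141 in SmMCll, 1045 ± 293 in PASMC and 399 ± 107 in BSMC. The part of smooth muscle content in the levels of Nrtn and Gfra4 was not tested.

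Set against each other per kb of exon, Gfra2 was at 196 ± 5.6 in SmMCll, 88.7 ± 8.3 in PASMC and 35.6 ± 13.7 in BSMC, and Gfra4 at 171 ± 10.8 in SmMCll, 390 ± 13.5 in PASMC and 606 ± 117 in BSMC (SD, n = 3 each). In SmMCll the receptors stood about level, with Gfra2 at 1.04 to 1.24 times Gfra4. In PASMC the ratio was 0.199 to 0.257, and in BSMC 0.047 to 0.0691. No library of any group overlapped those of another in this ratio, which carries no test of its own.

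**Figure D2:**
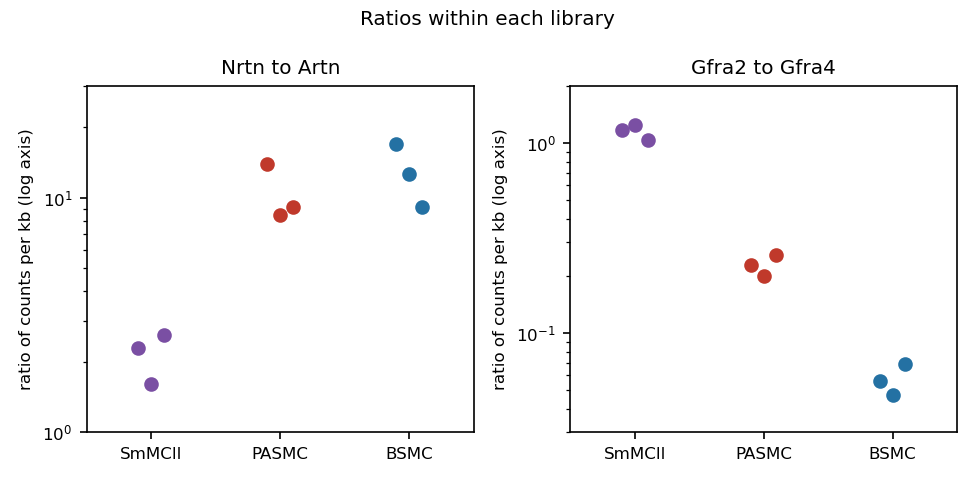
Ratio of normalized counts per kb of exon within each library (log axes), Nrtn to Artn on the left and Gfra2 to Gfra4 on the right, for the 3 libraries of SmMCll, PASMC and BSMC. The ligand ratio sits between 1.61 and 2.59 in SmMCll and at 8.44 or more elsewhere, and the receptor ratio falls into 3 separate groups.

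Gfra1, the co-receptor of GDNF (ENSMUSG00000025089, chromosome 19, 58224036 to 58444341, minus strand), was low. Its counts were 61, 57 and 41 in SmMCll, 62, 47 and 105 in PASMC, and 0, 38 and 37 in BSMC. Every SmMCll and PASMC library lay above every BSMC library, SmMCll and PASMC overlapped, and BSMC replicate 1 was at 0, which allows a value of up to 3.35. No comparison passed: the log2 fold change was -0.36 between SmMCll and PASMC (adjusted p = 0.891), 2.22 between SmMCll and BSMC (SE 1.10, adjusted p = 0.121) and 2.59 between PASMC and BSMC (SE 1.10, adjusted p = 0.105). The differences from BSMC rested on single libraries. Without BSMC replicate 2 they passed (3.11, adjusted p = 0.0366 for SmMCll; 3.47, adjusted p = 0.0286 for PASMC), as did that for SmMCll without BSMC replicate 3 (3.09, adjusted p = 0.047). Without BSMC replicate 1, the library at 0, the differences were 0.47 for SmMCll (adjusted p = 0.356) and 0.83 for PASMC (adjusted p = 0.174). Over all alternatives the adjusted p ran from 0.0147 to 0.356 for SmMCll and from 0.0172 to 0.215 for PASMC. The gene shares 416 exonic bases with the antisense gene Gm16277, and reads of the 2 strands cannot be told apart where counting did not use strand.

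Gfra3, the co-receptor of artemin (ENSMUSG00000024366, chromosome 18, 34822951 to 34853440, minus strand), was at the edge of detection. Its counts were 6, 7 and 1 in SmMCll, 0, 0 and 0 in PASMC, and 0, 1 and 0 in BSMC. The zeros of PASMC allow values of up to 2.59 to 2.88, so SmMCll replicates 1 and 2 lay above that limit and replicate 3 below it. The gene did not pass the filter and has no test. Artemin was thus measured at counts of at least 149 in every library while its own co-receptor stayed at 7 or less.

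**Figure D3:**
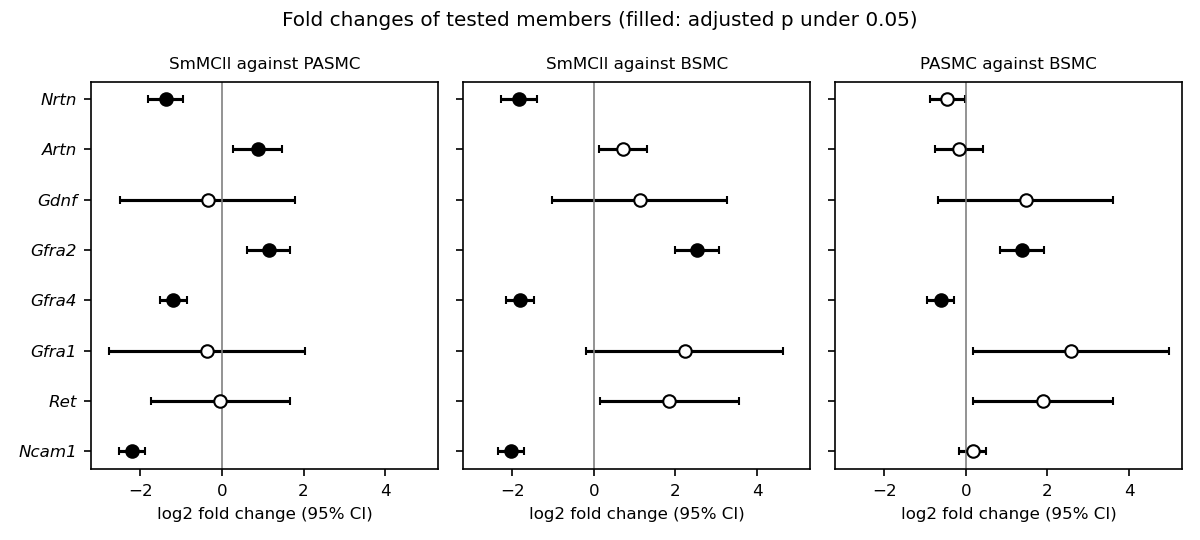
Log2 fold change of the 8 tested members with its 95% interval from limma, for SmMCll against PASMC, SmMCll against BSMC and PASMC against BSMC; filled circles passed an adjusted p of 0.05. Nrtn, Gfra4 and Ncam1 lie left of zero and Gfra2 right of it in the SmMCll panels, and the intervals of Gdnf, Gfra1 and Ret are the widest.

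Ret, the signalling kinase shared by the GFRα co-receptors (ENSMUSG00000030110, chromosome 6, 118128706 to 118174679, minus strand), was scarce in all libraries. Its counts were 29, 26 and 12 in SmMCll, 8, 17 and 70 in PASMC, and 13, 3 and 3 in BSMC. All groups overlapped, and PASMC replicate 3 held the highest value by far. No comparison passed: -0.04 between SmMCll and PASMC (adjusted p = 0.989), 1.85 between SmMCll and BSMC (SE 0.78, adjusted p = 0.0755) and 1.89 between PASMC and BSMC (SE 0.78, adjusted p = 0.0966). The difference between SmMCll and BSMC passed without BSMC replicate 1 (2.45, adjusted p = 0.0388) and without PASMC replicate 3 (1.85, adjusted p = 0.0463), within 0.0297 to 0.281 over all alternatives. Per kb of exon Ret averaged 3.30 ± 1.34 in SmMCll, 4.68 ± 4.95 in PASMC and 0.94 ± 0.85 in BSMC, far below Gfra2 and Gfra4 on the same scale.

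The same PASMC replicate 3 held the highest PASMC counts of Gdnf and Gfra1 and of several neuroendocrine genes. The 9 pulmonary neuroendocrine genes summed to 35.9 to 52.1 CPM in SmMCll, 30.7, 34.2 and 64.0 in PASMC replicates 1, 2 and 3, and 33.7 to 47.8 in BSMC. In PASMC replicates 1, 2 and 3 the peptide gene Calca was at 9, 9 and 50, and the secretory granule gene Resp18 at 10, 20 and 90. Insm1 was at 0 in every BSMC library. Of 8 neuroendocrine genes tested, 0 were higher and 1 lower between SmMCll and PASMC. Between SmMCll and BSMC 5 were higher and 1 lower, and between PASMC and BSMC 4 were higher and 0 lower. Over all genes tested the shares higher and lower were 9.39% and 6.83%, 23.7% and 18.2%, and 13.2% and 8.88% in this order. The part of such cells in the level of Ret was not tested.

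Ncam1, the neural cell adhesion molecule, gave the largest drop of any member (ENSMUSG00000039542, chromosome 9, 49413436 to 49710225, minus strand). Its counts were 524, 410 and 507 in SmMCll, 2110, 1972 and 2545 in PASMC, and 1972, 2186 and 1740 in BSMC. The SmMCll libraries lay far below all others, and PASMC and BSMC overlapped. The level was 4.59-fold lower in SmMCll than in PASMC (-2.20, SE 0.15, adjusted p = 5.66e-06). It was 4.09-fold lower in SmMCll than in BSMC (-2.03, SE 0.15, adjusted p = 2.22e-06). Between PASMC and BSMC the difference was 0.17 (adjusted p = 0.424, 95% interval -0.16 to 0.49). The overlapping genes Gm11149, antisense with 417 exonic bases in common, and ENSMUSG00000120806 averaged at most 3 and 4.33 in any group.

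Neuronal and glial genes were measured beside Ncam1. The 9 measured of 14 neuron genes summed to 33.7 to 55.2 CPM in SmMCll, 64.5 to 80.1 in PASMC and 81.8 to 117.5 in BSMC. Uchl1, a ubiquitin hydrolase, averaged 120 ± 31.2 in SmMCll, 344 ± 88.1 in PASMC and 432 ± 34.8 in BSMC, and the microtubule regulator Stmn2 averaged 154 ± 56.5 in SmMCll, 102 ± 16.6 in PASMC and 204 ± 60.4 in BSMC. The synaptic gene Snap25 was at 1 to 3 in SmMCll, 0 to 5 in PASMC and 0 in BSMC, and the autonomic factor Phox2a was at 0 in SmMCll and PASMC and 0 to 10 in BSMC. The 9 measured of 13 Schwann cell and glia genes summed to 30.6 to 35.8 CPM in SmMCll, 21.3 to 23.6 in PASMC and 28.1 to 37.9 in BSMC. Of 5 neuron genes tested, 0 were higher and 2 lower (Uchl1 and Prph) between SmMCll and PASMC, 1 higher (Syt1) and 2 lower (Uchl1 and Prph) between SmMCll and BSMC, and 0 higher and 1 lower (Stmn2) between PASMC and BSMC. The shares of all genes tested, higher and lower, were 9.39% and 6.83%, 23.7% and 18.2%, and 13.2% and 8.88% in this order. Uchl1 and Prph were lower in SmMCll, as Ncam1 was, while Syt1 was higher in SmMCll than in BSMC. Stmn2 on average and the glial sum lay above PASMC in SmMCll. The part of neuronal RNA in the level of Ncam1 was not tested.

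For the 5 members that passed a test, the genes with the most similar pattern were taken from 10872 protein-coding genes by Pearson correlation of log2 values over the 9 libraries, which share group structure, so that high values are common and describe only the order of the groups. For Nrtn these were Pdlim3 (r = 0.997), Ptges3l (0.996) and Pcp4l1 (0.995). Pdlim3, an actinin-binding muscle protein, averaged 1415 in SmMCll, 2518 in PASMC and 2892 in BSMC. For Gfra4 they were Sbspon (0.996), Hadh (0.994) and Stum (0.993), and for Ncam1 Perp (0.993), Vstm2b (0.991) and Ntrk3 (0.988), the neurotrophin-3 receptor, at 526 in SmMCll, 1349 in PASMC and 1320 in BSMC. For Gfra2 they were Dio2 (0.995), Fgf10 (0.993) and Olfml3 (0.986). Dio2, the enzyme that activates thyroid hormone, averaged 604 in SmMCll, 138 in PASMC and 21.7 in BSMC, and Fgf10, a growth factor of lung mesenchyme, 774 in SmMCll, 258 in PASMC and 68.3 in BSMC. For Artn they were Msc (0.958), Stard9 (0.950) and Rnf125 (0.945).

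Other binding partners of the family were measured too. Of 6 tested genes of this list, 0 were higher and 2 lower between SmMCll and PASMC, 1 was higher and 1 lower between SmMCll and BSMC, and 2 were higher and 0 lower between PASMC and BSMC. Beside them, 9.39% and 6.83%, 23.7% and 18.2%, and 13.2% and 8.88% of all genes tested were higher and lower. The list median was -0.44, 0.06 and 0.24 in these comparisons. Sorl1, a sorting receptor that carries GDNF and GFRα1, averaged 1904 ± 304 in SmMCll, 3601 ± 476 in PASMC and 1757 ± 441 in BSMC, with SmMCll below PASMC (-0.92, adjusted p = 0.00415) and PASMC above BSMC (1.05, adjusted p = 0.00173). Gdf15, a distant ligand that signals through RET with GFRAL, averaged 118 ± 33.0 in SmMCll, 250 ± 20.0 in PASMC and 283 ± 71.1 in BSMC, and SmMCll lay below PASMC (-1.12, adjusted p = 0.0114) as well as below BSMC (-1.26, adjusted p = 0.00266). Sdc3, a heparan sulphate proteoglycan that binds GDNF, averaged 1399 ± 185 in SmMCll, 2031 ± 145 in PASMC and 1395 ± 435 in BSMC, with no call in any comparison.

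RET adaptors, most of which serve many receptor kinases, were counted beside all genes. Of 20 tested, 2 were higher and 1 lower between SmMCll and PASMC, near the 9.39% and 6.83% of all genes. The counts were 12 and 3 between SmMCll and BSMC, beside 23.7% and 18.2% of all genes, and 7 and 1 between PASMC and BSMC, beside 13.2% and 8.88%. Calls over all genes were also more often higher than lower in these comparisons, a balance that turned in both comparisons with BSMC after scaling to column totals. The adaptors had medians of 0.15, 0.82 and 0.50 in this order. Shc2, a neuronal SHC adaptor, averaged 889 ± 138 in SmMCll, 368 ± 40.5 in PASMC and 272 ± 22.7 in BSMC, and SmMCll lay above PASMC (1.26, adjusted p = 0.000359) as well as above BSMC (1.69, adjusted p = 1.94e-05). Fyn, a SRC family kinase that also acts below NCAM, averaged 2256 ± 82.4 in SmMCll, 963 ± 50.8 in PASMC and 846 ± 128 in BSMC, higher in SmMCll by 1.23 against PASMC (adjusted p = 9.41e-05) and by 1.42 against BSMC (adjusted p = 1.25e-05). Src itself ran opposite to Fyn, at 171 ± 39.9 in SmMCll, 341 ± 53.8 in PASMC and 348 ± 60.7 in BSMC, lower in SmMCll than in PASMC (adjusted p = 0.00752) and with a log2 fold change of -1.03 against BSMC (adjusted p = 0.00312). Frs2, a docking protein of RET and FGF receptors, was higher in PASMC than in BSMC (1.27, adjusted p = 0.000502) and in SmMCll than in BSMC (1.82, adjusted p = 2.08e-05). Dok2, an adaptor of leukocytes, was lower in SmMCll than in BSMC (-4.85, adjusted p = 0.00167), at 0 to 9 in SmMCll and 57 to 152 in BSMC, where the leukocyte genes were also high.

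Among ERK feedback genes and ETS factors, which respond to many growth factors, no common direction was seen. Of 11 tested, 2 were higher and 1 lower between SmMCll and PASMC, 5 and 2 between SmMCll and BSMC, and 1 and 0 between PASMC and BSMC, with medians of 0.05, 0.32 and 0.03. Beside them, 9.39% and 6.83%, 23.7% and 18.2%, and 13.2% and 8.88% of all genes tested were higher and lower. Dusp6, an ERK phosphatase, averaged 950 ± 60.3 in SmMCll, 617 ± 59.0 in PASMC and 725 ± 63.4 in BSMC, higher in SmMCll than in PASMC by 0.62 (adjusted p = 0.00804). Spry4, a feedback inhibitor of receptor kinases, averaged 297 ± 33.0 in SmMCll, 152 ± 29.0 in PASMC and 187 ± 32.0 in BSMC, higher in SmMCll than in PASMC by 0.97 (adjusted p = 0.00849). Etv1, an ETS factor, averaged 152 ± 30.1 in SmMCll, 271 ± 10.2 in PASMC and 265 ± 11.6 in BSMC, with a log2 fold change of -0.85 between SmMCll and PASMC (adjusted p = 0.0097). Etv5, a target of RET signalling in the mouse kidney, averaged 235 ± 5.7 in SmMCll, 245 ± 30.6 in PASMC and 103 ± 37.8 in BSMC, higher in PASMC than in BSMC by 1.31 (adjusted p = 0.00604).

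**Figure D4:**
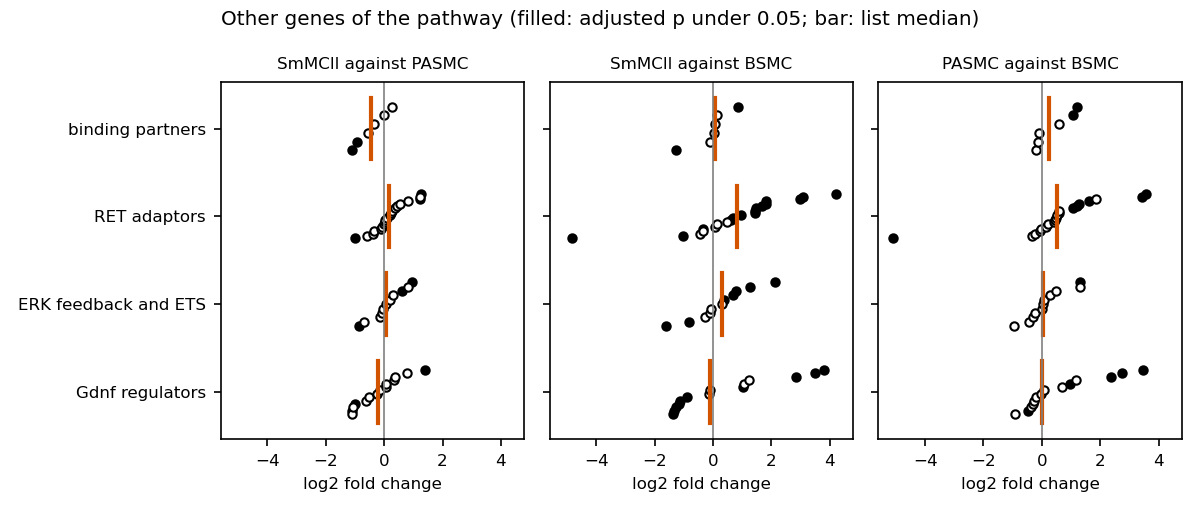
Log2 fold change of the tested genes of 4 lists (rows) for SmMCll against PASMC, SmMCll against BSMC and PASMC against BSMC, on 1 common scale; each circle is a gene, filled where it passed an adjusted p of 0.05, and the bar is the list median. The RET adaptors sit mostly right of zero against BSMC, with Dok2 far to the left, and the other lists straddle zero.

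Genes listed for the control of Gdnf in other tissues also moved in both directions, while Gdnf itself passed no test. Of 14 tested, 1 was higher and 2 lower between SmMCll and PASMC, 4 and 6 between SmMCll and BSMC, and 4 and 1 between PASMC and BSMC, with medians of -0.20, -0.12 and 0.01. The shares of all genes tested, higher and lower, were 9.39% and 6.83%, 23.7% and 18.2%, and 13.2% and 8.88% in this order. Slit2, a secreted guidance cue, averaged 915 ± 141 in SmMCll, 348 ± 89.6 in PASMC and 67.0 ± 21.7 in BSMC, and SmMCll lay above PASMC (1.42, adjusted p = 0.00475) as well as above BSMC (3.80, adjusted p = 2.64e-06). Its receptor Robo2 averaged 430 ± 86.4 in SmMCll, 249.7 ± 30.2 in PASMC and 38.7 ± 15.6 in BSMC, higher in PASMC than in BSMC (2.74, adjusted p = 9.10e-05). Robo2 was also called higher in SmMCll than in BSMC, and it had no call between SmMCll and PASMC. The forkhead factor Foxc1 averaged 829 ± 118 in SmMCll, 1753 ± 163 in PASMC and 1804 ± 244 in BSMC, and SmMCll lay below PASMC (-1.09, adjusted p = 0.000409) as well as below BSMC (-1.12, adjusted p = 0.000133). Slit2 and Robo2 followed the order of Gfra2, and Foxc1 had the pattern of Ncam1, low in SmMCll alone; these are descriptions, and no relation between the genes was tested.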

How the data were processed

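Per the submitters' processing notes, DESeq2 1.36.0, featureCounts 2.0.4, STAR 2.7.11a, Trimmomatic 0.39, Picard 3.1.1 and build mm39 were named, without role or order, and whether counting used strand is not given in the sources used here. Per the labels, RNA was column-purified with DNase, and at most 10 ng entered each SMART-Seq v4 library. The deposited values, recorded with the unit score, were read counts per gene normalized by the authors and rounded to whole numbers, which was read from the values: in some columns certain whole numbers never occur and in the others some occur in excess. The count test that would suit raw counts was therefore not used. The spacing gives each library's scaling factor, by which values were divided to obtain implied reads, 6.39 to 10.02 M per library (on simulated columns the factor was off by at most 0.000602%).

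A gene was tested if 3 or more libraries reached 10. With R 4.3.3 and limma 3.58.1, 1 model with a mean per group was fitted to log2(value + 1) of the 9 libraries, using robust and trend settings. Benjamini-Hochberg adjustment covered every gene tested. The test was also tried on simulated data. Replicate numbers shared between groups were not used to pair the libraries, because the labels state no pairing. Exon lengths were the union of exons in GENCODE vM21, whose gene spans equal those of the table for all 9 members. Windows came from a supplied set taken from RefSeq, and that set held none for Gfra2, Ncam1 and Ret. The window of Gfra3 was left out. Members and lists were chosen with earlier results of these data known. Named genes were all members, the label genes Acta2, Myh11, Chrm2 and Cspg4, up to 3 called genes of each list and direction, the 2 most abundant members of lists that held no call, and the 3 protein-coding genes most like each member with a group mean of at least 100. Sdc3, Snap25 and Phox2a were chosen after their values were seen. Tables and plots used Python 3.11.15, numpy 2.4.6, pandas 2.3.3 and matplotlib 3.10.9. Intervals and limits from a count of 0 cover counting error only.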

Additional observations from a re-analysis of the deposited data

How the results depend on the processing

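Gfra2 kept its direction and its call in all comparisons under all 20 alternatives, as did Nrtn, Gfra4 and Ncam1 between SmMCll and both other groups. Over the alternatives the log2 fold change of Ncam1 ran from -2.28 to -2.09 between SmMCll and PASMC, and that of Gfra2 from 2.25 to 2.81 between SmMCll and BSMC. Of all member values under alternatives, 434 kept direction and side of the threshold, 16 gained a call, 14 lost one and 7 changed sign, all of the last in members without a call. Artn between PASMC and BSMC was 0.063 on unscaled reads and ran from -0.36 to 0.16 with a library left out. Gdnf ran from -0.96 to 0.20 between SmMCll and PASMC and from -0.16 to 1.84 between SmMCll and BSMC, and Ret from -0.71 to 0.78 between SmMCll and PASMC, with a library left out. Unscaled reads left 1 member called between PASMC and BSMC; leaving out a library gave 1 to 4 there, 4 to 5 between SmMCll and PASMC and 4 to 6 between SmMCll and BSMC. The cause was not tested.

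Over all genes, 3451 were called between PASMC and BSMC, 2539 between SmMCll and PASMC and 6553 between SmMCll and BSMC. With only the libraries of the groups compared these were 1926, 4345 and 5440, and with array weights 4559, 5082 and 7285. With a library left out they ran from 1701 to 6364, 1597 to 3205 and 4254 to 8056; the count moved by over 1.5 times without BSMC replicate 1, 2 or 3 or PASMC replicate 1 or 2 in the first comparison, without any SmMCll replicate in the second, and without SmMCll replicate 3 in the third. Of the calls, 59.8% were higher in PASMC than in BSMC, against 46.3% after scaling to column totals, 49.3% after quantile normalization and 73.3% on unscaled reads. Between SmMCll and BSMC 56.6% were higher in SmMCll, against 42.8%, 44.3% and 68.6%. Unscaled reads moved the median of all genes to 0.27 between PASMC and BSMC and 0.22 between SmMCll and BSMC, so the unscaled values of members are to be read against those shifts.

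Libraries with the same replicate number deviated together no more than others (correlations of -0.124 to 0.136 against -0.19 to 0.14), and 2 of 9 libraries were closest to their own number. With 3 libraries per group this cannot exclude a shared animal or sort day. Adding replicate number as a block, 3287, 2286 and 6350 genes were called, and 2, 5 and 5 members, Artn between SmMCll and BSMC being the added call (adjusted p = 0.0457). The low members Gdnf, Gfra1 and Ret gave the widest intervals.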
